A study of Mus musculus with 2 samples.

Results

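The carbonic anhydrase gene cluster of mouse chromosome 3 holds 4 protein-coding genes, Car1, Car2, Car3 and Car13, of 21853 annotated in the genome. They were chosen by name in GENCODE M21 on mm10 (GRCm38). Every accessible region with its summit in the cluster or within 100 kb of either end was followed. These were 20 of the 46200 regions merged here from the peaks that the authors called reproducible between their libraries. The regions come from ATAC-seq, in which the Tn5 transposase cuts open chromatin, of megakaryocyte-erythroid progenitors (MEP), marrow cells from which both platelets and red cells form. The 2 libraries, replicates 1 and 2, form 1 group, from male mice of the C57BL/6J strain at an age of 5 to 6 weeks, with 50000 cells each and no treatment or allele named. Both libraries name the same donor entry, so they may not be separate animals, and the spread between them may be technical.

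Carbonic anhydrases interconvert carbon dioxide and bicarbonate, and red cells use them to carry carbon dioxide from tissues to lungs. Car1 and Car2 encode the abundant cytosolic enzymes of the red cell. Car3 encodes a cytosolic enzyme of low activity known from muscle and fat, and Car13 a cytosolic enzyme found in several tissues. Mouse Car1 is known to start from an upstream promoter in erythroid cells and from an inner promoter in the colon. Upstream enhancers of Car2 bound by the LDB1 complex, which contains the erythroid factors GATA1 and TAL1, have been described in mouse erythroleukaemia cells.

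The cell type label was checked on promoters called in both libraries, in the authors' thresholded lists (45.7% of all protein-coding genes) and in their longer pseudoreplicated lists (56.5%). Markers of erythroid cells were called in 9 of 9 genes in both kinds of list, and those of megakaryocytes in 1 of 6 in the thresholded and 5 of 6 in the longer lists. Some of the erythroid markers, such as Gata1, are factors of both lineages, so these counts do not weigh the lineages against each other. Granulocyte markers were called in 0 of 5 in either kind, and B cell markers in 1 of 3 (Pax5) in both. T cell markers were called in 0 of 3 in the thresholded and 1 of 3 (Lck) in the longer lists, and muscle and fat markers in 1 of 6 (Actn3) and 2 of 6 (Actn3 and Plin1). The part of other cell types in the cluster's values was not tested.

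Along the plus strand the genes run Car13 (chr3:14641727-14663002), Car1 (chr3:14766216-14808368, on the minus strand), Car3 (chr3:14863512-14872523) and Car2 (chr3:14886273-14900770). They span 259 kb. The 2 red cell genes are therefore not next to each other, since Car3 lies between them. The 20 regions are numbered along the chromosome from 1 to 20, and 6 of them touch 1 kb around a protein-coding transcription start site (TSS) and are called promoter regions. These 6 are the promoters of the 4 carbonic anhydrases and of the neighbours E2f5, a cell cycle transcription factor, and 1810022K09Rik. The other 14 are distal, with 9 between genes, 4 in introns and 1 in a coding exon.

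Distal regions of the cluster are given here by the stretch that carries sites for GATA factors, the transcription factors of erythroid and megakaryocyte cells. Capitals mark AGATAA or AGATAG, and likewise TGATAA or TGATAG, on either strand within 100 bp of the summit, and every stretch is on the plus strand of GRCm38. The first 3 sequences are the pair upstream of Car2 and the single GATA-bearing region upstream of Car1. Region 18 is the distal region of highest fold in the set. Regions 20 and 4 are the ones where a further capital CTG or CAG marks the composite site that GATA1 and TAL1 are known to share, written here as CTG, 8 or 9 bases and AGATAA.
Region 13, upstream of Car2, chr3:14877445-14877480: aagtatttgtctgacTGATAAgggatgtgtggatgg
Region 14, upstream of Car2, chr3:14879047-14879158: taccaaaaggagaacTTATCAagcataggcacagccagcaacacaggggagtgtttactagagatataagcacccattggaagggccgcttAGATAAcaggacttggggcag
Region 9, upstream of Car1, chr3:14820221-14820256: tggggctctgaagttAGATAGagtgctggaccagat
Region 18, downstream of Car2, chr3:14944885-14944920: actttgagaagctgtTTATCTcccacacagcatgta
Region 20, far downstream of Car2, chr3:14997373-14997537: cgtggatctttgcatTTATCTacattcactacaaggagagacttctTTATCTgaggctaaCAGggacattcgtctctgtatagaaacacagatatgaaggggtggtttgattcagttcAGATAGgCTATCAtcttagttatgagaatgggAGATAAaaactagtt
Region 4, intron of Car13, chr3:14660671-14660718: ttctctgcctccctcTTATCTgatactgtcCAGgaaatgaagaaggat

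Regions carry the authors' fold, read as the level over local background at the summit, and their −log10 p, which grows with library depth. Neither was scaled between libraries. Read counts were not used here, so depth is unknown. Each library has a thresholded list, of peaks that pass the authors' filter on the irreproducible discovery rate (IDR), and a longer pseudoreplicated list. Values for the libraries together are called pooled.

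The promoters of Car1, Car2 and Car13 were accessible in both libraries, and that of Car3 fell short of the thresholded lists. Thus 3 of 4 genes were called in both thresholded lists, against 45.7% of all protein-coding genes. The same 3 genes were called in the thresholded list of replicate 1, where 47.7% of genes were called, and in that of replicate 2, with 47.9%. All 4 were called in both pseudoreplicated lists (background 56.5%) and in the conservative list of both libraries (background 54.5%). With backgrounds of about that size and 4 genes, the counts say little beyond which gene is missing.

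**Figure D1:**
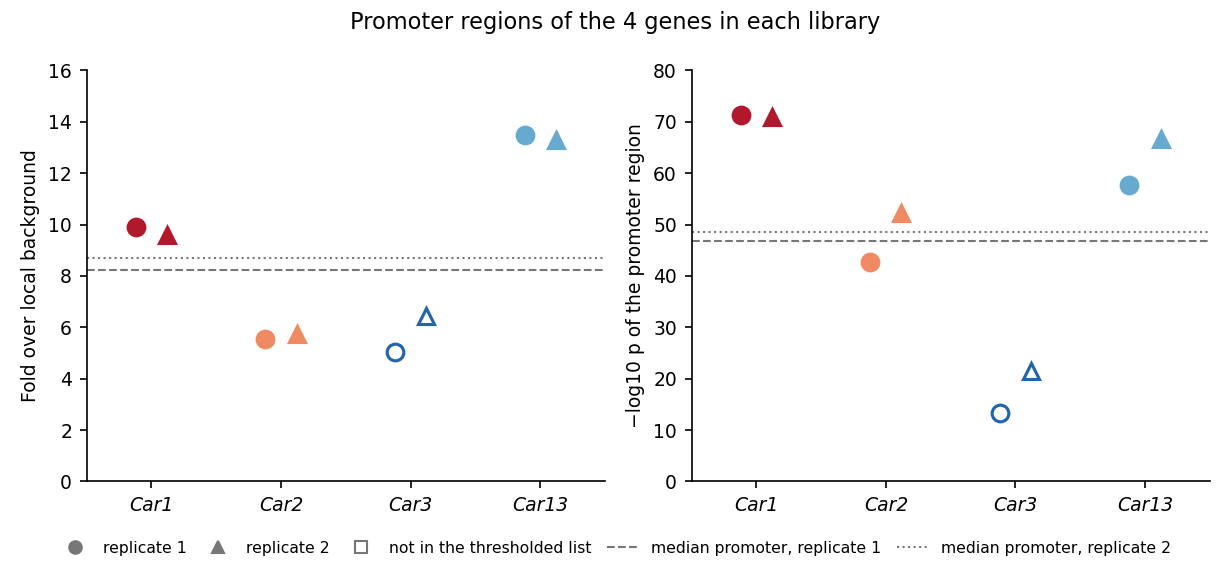
Fold over local background (left) and −log10 p (right) of the promoter region of Car1, Car2, Car3 and Car13, one point for each library, with open symbols where the region was not in the thresholded list. Lines are medians over 10422 and 10473 called promoters of replicates 1 and 2. Car13 had the highest fold, Car1 the highest −log10 p, and Car3 the lowest −log10 p.

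The outer Car1 promoter, region 8 (chr3:14808056-14809005), had a fold of 9.89 in replicate 1 and 9.58 in replicate 2 (mean 9.73 ± 0.222, SD, n = 2). Among called promoters of replicates 1 and 2 this fold was at the percentiles 73.4 and 62.8. The −log10 p of region 8 was 71.4 and 71, at the percentiles 82.4 and 79.1. The pooled summit lay 87 bp upstream of the outermost TSS. Both libraries thus gave the Car1 promoter a level above the promoter medians, which were 8.24 and 8.69 for fold and 46.9 and 48.5 for −log10 p in replicates 1 and 2.

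In the conservative list and the lists of single libraries, accessibility at Car1 was found at the outer TSS. It was not found at the inner TSS, 29.9 kb further into the gene. Around the inner TSS no region was listed in the conservative list, or in the thresholded, pseudoreplicated or IDR-ranked lists of either library. Among the lists searched at this TSS, only the older archived list had a region (chr3:14779410-14779529), with a fold of 2.7 and a −log10 p of 3.75. The summit of that region lay upstream, just outside the 1 kb around the TSS, so only its edge reached in. Other lists of both libraries together were not searched at this TSS. The archived list holds 201500 regions against 46200 in the conservative list. By their order in the gene, the outer TSS corresponds to the promoter known from erythroid cells and the inner TSS to that known from the colon.

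The Car2 promoter, region 15 (chr3:14886373-14887222), had a fold of 5.56 in replicate 1 and 5.74 in replicate 2 (mean 5.65 ± 0.124, SD, n = 2). Among called promoters this was a low fold, at the percentiles 10.7 and 8.9, while its −log10 p of 42.7 and 52.3 lay near the middle, at the percentiles 43.1 and 55.3. The summit lay 145 bp downstream of the second of the gene's start sites, in an untranslated exon part. So the 2 red cell genes differed in promoter fold by more than either differed between libraries, and Car2 was the lower of the pair on both scales.

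The Car3 promoter region, region 10 (chr3:14862620-14863378), had the lowest −log10 p of the cluster's promoters. It lay off the start site, with its summit 754 bp upstream. In replicate 1 the pseudoreplicated list had 2 separate regions at this promoter, and the values given are the higher ones. It had a fold of 5.05 in replicate 1 and 6.45 in replicate 2 (mean 5.75 ± 0.986, SD, n = 2) and a −log10 p of 13.3 and 21.5 in the pseudoreplicated lists. In the rankings of replicates 1 and 2, the −log10 IDR was 2.42 and 2.56 at the Car2 promoter, against 0.649 and 0.798 at the Car3 promoter. In the ranking of the true replicates the Car3 region reached 2.21, and it is therefore in the conservative list. The fold of the Car3 promoter overlapped that of the Car2 promoter, with pooled folds of 6.4 and 5.75, whereas its −log10 p was lower in both libraries.

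The Car13 promoter, region 3 (chr3:14641200-14642240), had the highest fold of the cluster, 13.5 in replicate 1 and 13.3 in replicate 2 (mean 13.4 ± 0.14, SD, n = 2). That is at the percentiles 97.3 and 95.7 among called promoters, while its −log10 p of 57.7 and 66.6 was at the percentiles 66.2 and 74.2. The summit lay 6 bp upstream of the TSS in the pooled libraries. Promoter fold therefore did not separate Car1 and Car2 from Car3 and Car13, since it ran Car13, Car1, and then Car2 with Car3, whose values overlapped. On the pooled −log10 p scale the order was Car1 with 137, Car13 with 119, Car2 with 92.2 and Car3 with 34.5. Car1 was above Car13 on that scale in each library as well.

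The promoters also differed in base composition over 250 bp before to 50 bp after each TSS. The outer Car1 promoter had 49% G+C and an observed-to-expected CpG ratio of 0.0578, so it is almost without CpG. The inner Car1 promoter had 32.3% G+C and a CpG ratio of 0. Car2 had 62% and 77.3% G+C at its start sites, with CpG ratios of 0.868 and 0.825. Car2 thus has a CpG-rich promoter and Car1 does not, although both are red cell genes. Car3 had 58.3% G+C with a CpG ratio of 0.456, and Car13 had 64.7% with 0.521, against medians of 55.3% and 0.537 over all genes and 60% and 0.766 over genes with a called promoter. The outer Car1 promoter is thus accessible at a CpG ratio far below the median of called promoters.

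**Figure D2:**
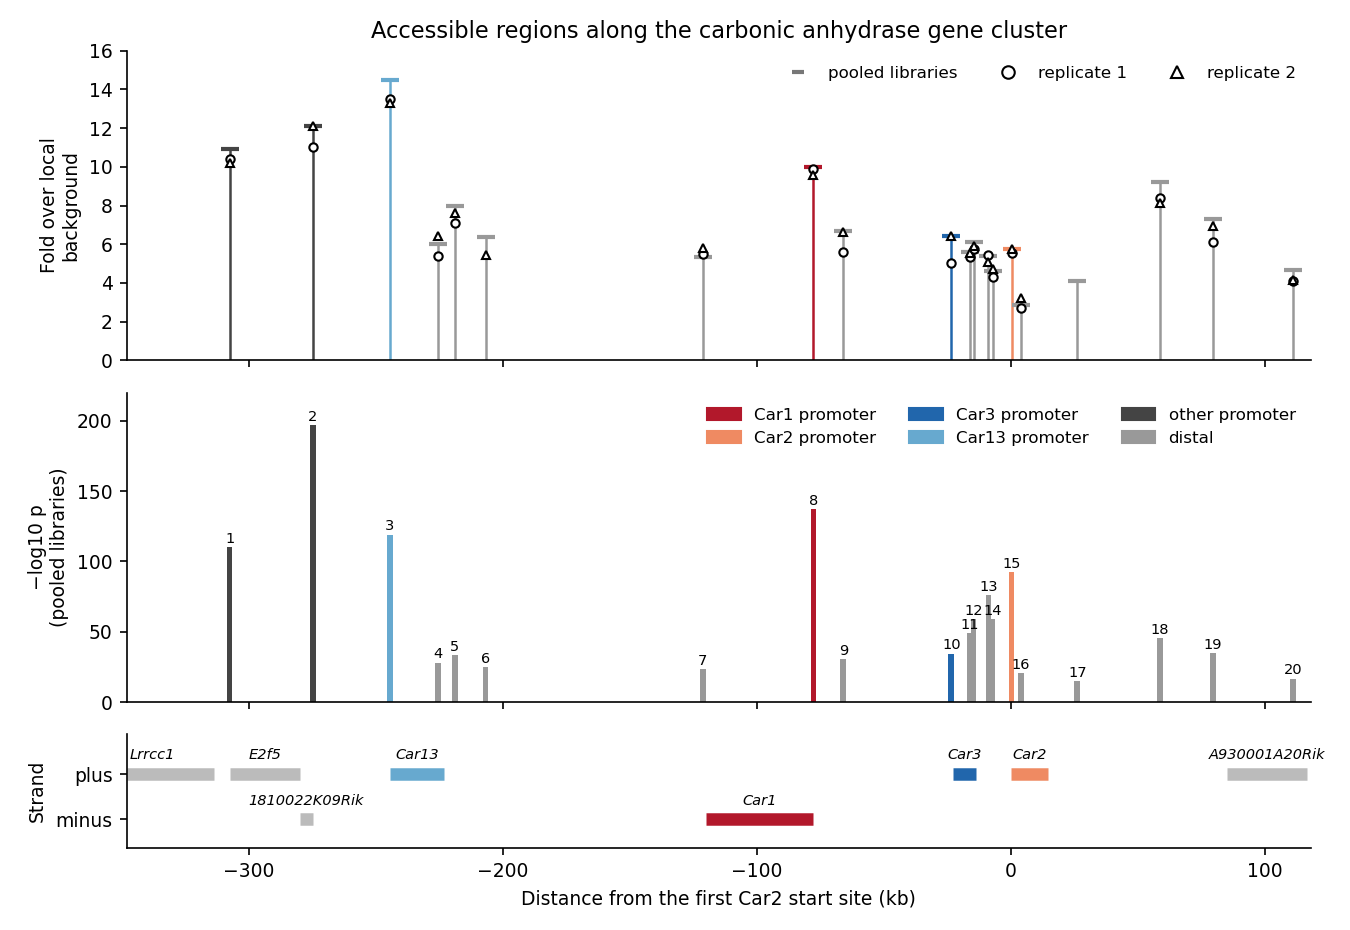
Fold over local background (top; stems and dashes for the pooled libraries, circles for replicate 1 and triangles for replicate 2) and pooled −log10 p (middle; numbers are region numbers) of the 20 regions, against distance in kb from the first Car2 start site, over the gene bodies by strand (bottom). Regions 10 to 16 stand close together around Car3 and Car2, and the stretch between Car13 and Car1 holds 3 regions.

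Accessible regions were unevenly spread over the cluster. From the start of the annotated Car3 gene to the end of Car2, over 37.3 kb, 6 regions covered 3952 bp, or 10.6% of the sequence. Between the end of Car13 and the start of Car1, over 103 kb, 3 regions covered 1.85%. The whole cluster was accessible over 3.65% of its length and the window with 100 kb to each side over 3.14%, against 1.07% of the genome. Windows of that length tiled over the genome had a median of 4 regions, and 13.1% of 5923 of them had 20 or more. The density around Car3 and Car2 is given for a stretch picked after its values were seen.

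The 20 regions come from a list filtered for agreement between the libraries, so their recurrence was largely set in advance. Both thresholded lists held 12 of them, replicate 1 alone held 1 (region 20), replicate 2 alone held 3 (regions 5, 7 and 19), and 4 were in neither (regions 6, 10, 16 and 17). Of the 20, 18 were in both pseudoreplicated lists, where the folds of the libraries differed by a median of 0.325 and, at the Car3 promoter, by as much as 1.4. Replicate 2 had the higher fold in 13 of these 18. Region 6 was in the pseudoreplicated list of replicate 2 only and region 17 (chr3:14912092-14912493, pooled fold 4.08) in neither. Both are in the conservative list through the ranking of the true replicates, where their −log10 IDR was 2.14 and 1.74.

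Counted by the nearest start site among the 4 genes, Car1 had 3 regions and Car2 had 8, against 3 for Car3 and 6 for Car13. Car1 and Car2 together had 11, of them 9 distal, and Car3 and Car13 together had 9, of them 5 distal. The 6 of Car13 include the promoters of E2f5 and 1810022K09Rik, and without these Car3 and Car13 together had 7, which makes the difference 4 in place of 2. The difference of 2 depended on the list and the counting. It was -1 with each summit counted on its own, 0 among the upper 50% of regions by fold, and 11, 17 and 38 in the replicated, pooled pseudoreplicated and archived lists. The distal regions nearest to Car1 and Car2 had a median pooled fold of 5.33 (2.87 to 9.19), and those nearest to Car3 and Car13 one of 6.13 (5.62 to 7.98). The median pooled −log10 p was 30.8 for those nearest to Car1 and Car2 and 33.2 for those nearest to Car3 and Car13. Neither measure set the distal regions of the pairs apart, as their ranges overlap, and all distal regions of the genome had medians of 6.36 and 32.5.

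Within 50 kb of its most upstream TSS, Car1 had 2 distal regions and Car2 had 6, against 7 for Car3 and 3 for Car13. Over all protein-coding genes the median was 2, and 9.67% had 6 or more and 5.37% had 7 or more. The high counts of Car2 and Car3 are not separate, since the genes start 22.7 kb apart. All 6 regions of Car2, 100% of its set, are also among the 7 of Car3, 85.7% of that set. Distance alone cannot tell which of the genes a region serves.

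Upstream of Car2 lay a pair of distal regions with high significance and a low fold. Region 13 (chr3:14877119-14878182), with its summit 8.87 kb upstream of the first Car2 TSS, had a fold of 5.44 in replicate 1 and 5.1 in replicate 2. Its pooled −log10 p of 76.3 was at the percentile 89 among distal regions, and its pooled fold of 5.39 was at the percentile 31.5. Region 14 (chr3:14878933-14879295), 7.18 kb upstream, had folds of 4.31 and 4.71 in replicates 1 and 2, a pooled fold of 4.64 and a pooled −log10 p of 58.7. Both were in the thresholded lists of both libraries, and regions 11, 12, 13 and 14 had the 4 highest values of pooled −log10 p among the 14 distal regions.

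Regions 11 and 12 lie inside Car3, 16.3 and 14.7 kb upstream of the first Car2 TSS. Region 11 (chr3:14869685-14870304), in a Car3 intron, had folds of 5.32 and 5.57 in replicates 1 and 2 and a pooled −log10 p of 49. Region 12 (chr3:14871336-14871761), over a coding exon of Car3, had folds of 5.75 and 5.93 and a pooled −log10 p of 58.8. Both were in both thresholded lists, unlike the Car3 promoter itself. Region 16 (chr3:14889707-14890335), in a Car2 intron 3.96 kb downstream of the first TSS, was in neither thresholded list, and its folds in the longer lists were 2.68 in replicate 1 and 3.23 in replicate 2.

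**Figure D3:**
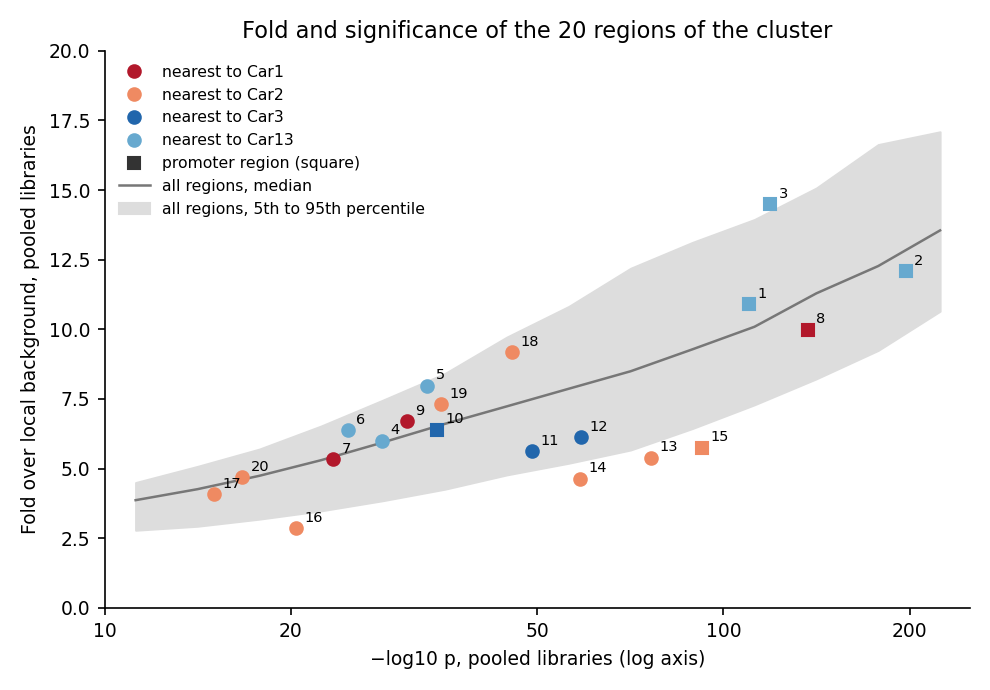
Pooled fold over local background against pooled −log10 p (log axis) for the 20 regions, coloured by nearest gene of the cluster, with squares for promoter regions. The line and band give the median and the 5th to 95th percentiles over all conservative regions. Regions 13 to 16, around Car2, lie below the band and region 3, the Car13 promoter, lies above it.

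The 6 neighbouring regions from Car3 to Car2, numbers 11 to 16, had low folds for their significance. Among regions whose pooled −log10 p was within 10%, a higher fold than that of the Car2 promoter was found in 99.1% of 2778. For the upstream regions 13 and 14 the shares were 98.2% and 98.6%, and for the intron region 16 it was 99.5%. For regions 11 and 12, inside Car3, they were 85.5% and 85%. The other 14 regions of the window had shares between 4.17% at the Car13 promoter and 70.7% at the Car1 promoter, so regions 11 to 16 form the low end without a gap in their order along the chromosome. The local background behind the folds was not used here, and its part in this pattern was not tested.

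Within 50 kb of its outer TSS, Car1 had 2 distal regions, equal to the median over all protein-coding genes. Region 9 (chr3:14819708-14820572), 11.9 kb upstream of the outer TSS, had folds of 5.6 in replicate 1 and 6.65 in replicate 2, and it was in both thresholded lists. Region 7 (chr3:14764774-14765543) lies just beyond the 3′ end of Car1 and had folds of 5.49 and 5.8 in replicates 1 and 2, with only replicate 2 in the thresholded list. Within the Car1 gene body the conservative list held no region besides the promoter. The pseudoreplicated lists had further regions there that did not recur, 1 in replicate 1, over a coding exon with a fold of 3.26, and 3 in replicate 2, in introns with folds of 3.27, 3.06 and 2.61.

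Near Car13, the intron region 4 (chr3:14659916-14660938) had folds of 5.4 and 6.43 in replicates 1 and 2 and was in both thresholded lists. Region 5 (chr3:14667041-14667671), past the end of the gene, had folds of 7.1 in replicate 1 and 7.61 in replicate 2, from the longer lists. Region 6 (chr3:14679329-14679839) had a pooled fold of 6.37. These 3 regions had higher pooled folds than regions 13 and 14 upstream of Car2, and a lower pooled −log10 p, of 28.1, 33.2 and 24.7.

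Downstream of Car2, region 18 (chr3:14944507-14945175), 58.5 kb from the nearest Car2 TSS, had the highest fold of the distal set, 8.37 in replicate 1 and 8.12 in replicate 2, and it was in both thresholded lists. Region 19 (chr3:14965471-14965986) had folds of 6.09 and 6.95 in the longer lists of replicates 1 and 2. Region 20 (chr3:14997143-14997698) lies in an intron of the lincRNA gene A930001A20Rik and had folds of 4.08 and 4.15. All 3 are nearest to Car2 among the 4 genes, at distances where nearness says little.

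Sites for GATA factors were present in 9 of the 14 distal regions (64.3%), against 53.8% of 32778 distal regions of the same length around the summit in the genome, a share near that background. They were unevenly divided over the genes. Of the distal regions nearest to Car1, 1 of 2 had a site, and of those nearest to Car2, 7 of 7, with 13 sites in all. Of those nearest to Car3, 0 of 2 had one, and of those nearest to Car13, 1 of 3. The count was thus 8 of 9 for Car1 and Car2 and 1 of 5 for Car3 and Car13. The split is a description of 14 regions, lying as far as 111 kb from the gene they are counted for, and no test was run on it. G+C around the summit was 38.8% to 49.3% in the distal regions nearest to Car2. In regions 11 and 12, nearest to Car3, it was 52.7% and 59.7%. Regions 5, 6 and 7, also without a site, had 48.3%, 46.8% and 57.2%. The background was not matched for G+C, and the part of base composition in the split was not tested.

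**Figure D4:**
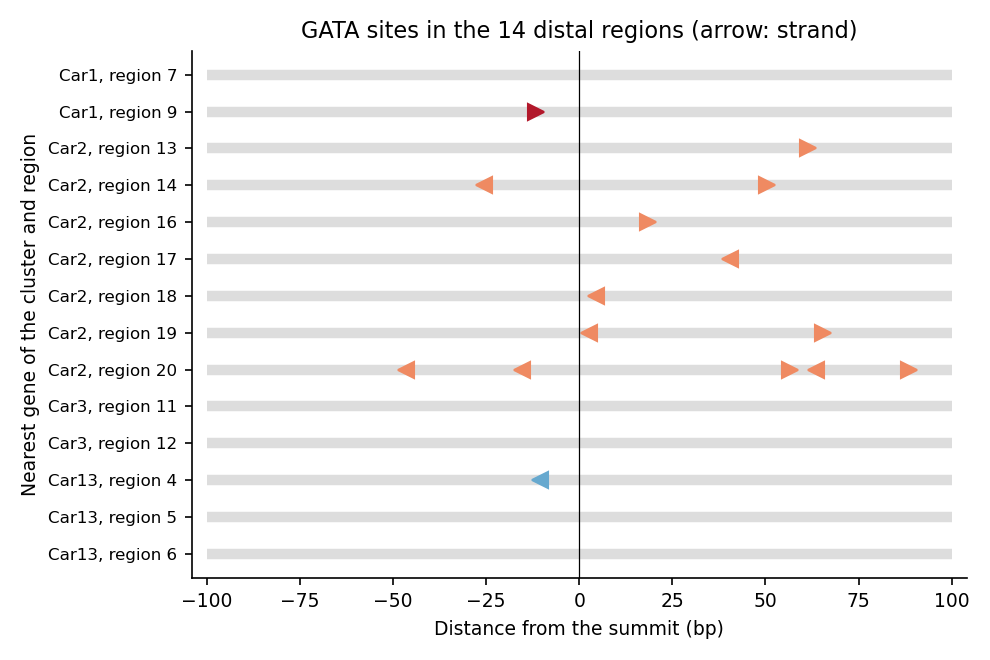
Position of each GATA site (arrow, pointing by strand) relative to the summit in bp, for the 14 distal regions grouped by nearest gene of the cluster. Grey bars are the searched windows. Every region nearest to Car2 has a site, while neither region inside Car3 has one.

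The division kept its direction under other spellings but narrowed under the loosest. These searches share most of their sites and the same 14 regions, so the kept direction is not separate support. With AGATAA or AGATAG only, 57.1% of the 14 distal regions had a site, against 38.9% of all distal regions, and with the letters GATA alone 78.6% against 70.9%. With AGATAA or AGATAG only, 7 of 9 distal regions nearest to Car1 and Car2 had a site and 1 of 5 nearest to Car3 and Car13. With GATA alone the counts were 8 of 9 and 3 of 5, and with the whole region searched they were 9 of 9 and 2 of 5. Whole regions are longer, so matches are more likely, and no share over all distal regions was taken for them. Region 20 alone held 5 of the 14 sites counted for Car1 and Car2. In the sequences above, regions 13 and 14 carry 1 and 2 sites within 100 bp of their summits.

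The composite letters were found in 2 of 14 distal regions (14.3%), region 20 and the Car13 intron region 4, against 4.7% of all distal regions. At these places the GATA letters are part of the composite, so the 2 counts are not separate. The pair upstream of Car2 held none. Letters TGTGGT, known for RUNX factors, were found in 5 regions (35.7% against 21.5%), AGGAAG, known for ETS factors, in 3 (21.4% against 27.1%), and CCNCNCCC, known for KLF factors, in 1 (7.14% against 25.4%). The KLF and RUNX letters overlap each other in region 19. AGGGGGC, part of the CTCF site, was found in 1 region (7.14% against 8.41%), and neither TGACTCA, known for NFE2 and AP-1, nor CCGGAA, another ETS spelling, was found in any, against 5.64% and 3.72%. Both strands were searched, and with 14 regions a single region moves a share by 7.14 percentage points.

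Of the 6 promoter regions of the window only that of Car1 held a GATA site, 97.5 bp from its summit. That is 16.7%, a share near the 17.9% of all promoter regions. With AGATAA or AGATAG only the share was 0%, against 11.5%. With the letters GATA alone it was 33.3%, at the Car1 and Car3 promoters, against 35.1%. The Car1 and Car2 promoters differed in their letters as well, since the KLF letters were found at Car2 and not at Car1. KLF letters were found in 4 of the 6 (66.7% against 57.2% of promoter regions), at E2f5, 1810022K09Rik, Car13 and Car2. The distal regions of the cluster had a median of 45% G+C around the summit (38.8% to 59.7%), against 50.2% for all distal regions.

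Beyond the 20 regions, the pseudoreplicated list of replicate 1 had 7 further regions in the window, with folds of 2.94 to 5.2, and that of replicate 2 had 10, with folds of 1.91 to 4.62. Of these, 4 were shared by the libraries. The strongest lay 72.1 kb downstream of Car2 (chr3:14958348-14958583), with a fold of 5.2 in replicate 1 and 4.61 in replicate 2. An intron region of E2f5 (chr3:14583874-14584227) had 4.88 and 3.45, and a region 29.1 kb downstream of Car2 (chr3:14915443-14915734) had 3.76 and 4.62 in replicates 1 and 2. Of these 3, chosen by fold, 2 lay on the Car2 side.

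The neighbours outside the family had strong promoters. The E2f5 promoter, region 1 (chr3:14578300-14579213), had folds of 10.4 and 10.2 in replicates 1 and 2, and the 1810022K09Rik promoter, region 2 (chr3:14610968-14611818), had 11 and 12.1 and the highest pooled −log10 p of the window, 197. Lrrcc1, a centrosome gene whose further start sites reach into the window, had folds of 11.4 and 13.2 at its main promoter just outside it. The 6 other genes with a start in the window are 5 pseudogenes and the lincRNA gene A930001A20Rik.

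Promoters were called in both thresholded lists for 3 of 4 genes of the cluster, against 2 of the 12 other carbonic anhydrase genes and 45.7% of all protein-coding genes. Car5b, a mitochondrial enzyme, had folds of 12.3 and 14.7 in replicates 1 and 2, and Car7, a cytosolic enzyme, had 7.68 and 7.9. In both pseudoreplicated lists all 4 genes of the cluster and 4 of the 12 others were called, against 56.5% of all genes, the further 2 being Car8, with folds of 6.63 and 8.65, and Car12, with 4.44 and 5.08. The remaining 8 had no promoter region in these lists.

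Of 12 genes for transport of bicarbonate, protons or gas, 7 had a promoter called in both thresholded lists, a share near the 45.7% of all genes. They include Rhag, of the red cell Rh complex, with folds of 7.19 and 7.06 in replicates 1 and 2, and the water channel gene Aqp1 with 4.9 and 5.3. The anion exchangers Slc4a2, with 9.02 and 9.37, and Slc26a6, with 8.25 and 10, and the bicarbonate transporters Slc4a7, with 11 and 11.5, and Slc4a8, with 6.79 and 6.35, were also among them. The other 5, among them Slc4a1, the anion exchanger of the mature red cell, had no promoter region in these lists. Slc4a1 had 2 distal regions within 50 kb, the stronger with a pooled fold of 9.57. The promoters of Car1 and Car2 were thus called in libraries whose Slc4a1 promoter was not.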

How the data were processed

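Per the labels and file headers, the authors deposited narrowPeak lists of peaks, mapped to mm10 (GRCm38). Their ratio column gives each peak's fold as deposited, read from its place and values as a level over local background. The deposited −log10 p column holds each peak's significance. The deposited score column used is the −log10 IDR. Not given in the sources used here are the aligner, the peak caller, versions and Tn5 offset handling. Thresholded and pseudoreplicated lists were made per library, and the conservative list on both libraries (all 79774 of its peaks had an IDR at or below 0.05 in the ranking of the true replicates).

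Overlapping peaks were merged into regions that carry the strongest peak's summit and fold and the highest −log10 p, with Python 3.11.15 scripts tested on simulated data. Genes and TSS came from GENCODE M21. A promoter was called where a region overlapped TSS ± 1 kb, and sequence came from the reference genome of the same build. No test was run, since there is 1 group of 2 libraries. Regions of 1 gene are not replicates. Alternatives changed the list, the windows, the merging, the motif spelling and the library left out. The text names the 4 members, genes starting within 100 kb, carbonic anhydrases and transport genes called in both libraries, all conservative regions of the window and the 3 strongest of the longer lists; other named genes were chosen after their values were seen, and 1 transport gene is not reported here. Members and lists were chosen with earlier results of these data known.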

Additional observations from a re-analysis of the deposited data

How the results depend on the processing

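The number of regions in the window was 20 in the conservative list and lay between 13 and 15 in the thresholded lists of single libraries. It was 41 in the replicated list and 41 in the pseudoreplicated list of the pooled libraries, 90 in the archived list, 37 with each summit on its own and 8 among the upper 50% by fold. The regions nearest to Car1 and Car2 minus those nearest to Car3 and Car13 numbered 2. The difference was 1 without either replicate and 1 within 50 kb, 0 among the upper 50% by fold, and it reversed to -1 with each summit on its own. Without the promoters of other genes it was 4, an alternative chosen after seeing the data. It was 11 in the replicated, 17 in the pooled pseudoreplicated and 38 in the archived list. Regions with a GATA site, promoters included, numbered 10 of 20. No share over promoter and distal regions together was taken beside it. Regions with a site were 7 of 15 without replicate 1 and 6 of 13 without replicate 2. The counts were 20 of 41, 19 of 41 and 37 of 90 in the replicated, pooled pseudoreplicated and archived lists. Among the upper 50% by fold the count was 4 of 8. The 3 genes with a called promoter became 4 in the pseudoreplicated and conservative lists and 2 among the upper 50% by fold, where Car2 dropped out. The count stayed at 3 with either library alone and under the other promoter windows and start sites. Promoter folds of Car1, Car2 and Car13 were the same under 9 of 9 alternatives because each takes the same deposited peak, so this does not test their stability. That of Car3 has no value in the thresholded lists and so no alternative. The cause of these changes was not tested beyond list length and fold. No paired analysis was possible because there is 1 group and no test. Depth is unknown, so a missing region may be one below detection.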
